A study of Homo sapiens with 9 samples.

Results

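The genes described here make cholesterol and fatty acids, or control their making. They are 30 genes chosen by name: 17 enzymes of the mevalonate and sterol pathway, 8 enzymes of fatty acid synthesis and desaturation, and 5 regulators and carriers. Of the 30 genes, 27 had a probe set annotated to no other gene, among 19775 genes with such a probe set, and all 27 lay above the filter on low signals that left 12616 genes for testing. CYP51A1 and FADS1 had only probe sets annotated together with another gene, and FDFT1 was not analysed here.

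The samples were 9 Affymetrix arrays with RNA of A549 cells, an established human lung adenocarcinoma line grown in medium with serum and given no further treatment. The groups were si-Med23 (3 arrays, RNA interference oligos A, B and C against MED23), si-Elk1 (3 arrays, oligos A, B and C against ELK1) and si-Ctrl (3 arrays with a control oligo). MED23 belongs to Mediator, a large coactivator that bridges DNA-bound activators and RNA polymerase II. ELK1, of the ETS family, is one of the activators known to bind MED23. Within each knockdown the 3 arrays are 3 different oligos, described by the submitters as separate lines, so their spread holds differences between oligos. The labels do not say whether the si-Ctrl arrays come from separate cultures, so the p-values measure only the spread among these samples, which may be technical.

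Sterol synthesis runs from acetyl-CoA through mevalonate, isoprenoid units and squalene to lanosterol and cholesterol, and fatty acid synthesis starts from the same acetyl-CoA. The SREBP transcription factors, encoded by SREBF1 and SREBF2, drive the genes of both pathways. When membrane sterol is high, INSIG proteins hold SREBP and its escort SCAP in the endoplasmic reticulum, and when it is low, SREBP moves to the Golgi and is cut to release its active part. The arrays measured messenger RNA and not the cut proteins.

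The targeted genes were low in the arrays labelled for them. MED23 had log2 signals of 6.79, 6.19 and 7.06 in si-Med23, against 9.27, 9.05 and 9.08 in si-Ctrl, and ELK1 had 7.07, 7.15 and 7.83 in si-Elk1, against 9.36, 9.61 and 9.29 in si-Ctrl. MED23 in si-Elk1 was at 8.87, 9.02 and 8.18, below every si-Ctrl array, at -0.44 (limma, adjusted p = 0.325). ELK1 in si-Med23 was at 9.98, 10.36 and 9.54, at 0.54 (limma, adjusted p = 0.123). The part of the MED23 signal in the si-Elk1 results was not tested. The deposited signals were scaled so that each array's trimmed mean was about 500, so every difference below is relative to that mean. The poly-A spike controls, RNAs normally added to the sample in fixed amounts, differed between the groups. Their mean log2 signal was 9.22 ± 0.12 in si-Med23, 8.25 ± 0.29 in si-Elk1 and 7.61 ± 0.20 in si-Ctrl (SD, n = 3 each). The hybridization controls averaged 12.33 ± 0.06 in si-Med23, 12.01 ± 0.10 in si-Elk1 and 11.83 ± 0.06 in si-Ctrl (SD, n = 3 each). Scaled on the poly-A spikes, the median gene of all 12616 was -1.52 in si-Med23 against si-Ctrl on the log2 scale, in place of 0.09, and scaled on the hybridization controls it was -0.41. In si-Elk1 against si-Ctrl the same median was -0.59 with the poly-A spikes and -0.13 with the hybridization controls, in place of 0.05. The part these shifts play in the results was not tested. Median centring and both control scalings add 1 constant to each array, so by construction they leave a gene's distance from the all-gene median as it was. Of 9 airway epithelial markers, 8 lay above the filter, and NKX2-1 lay below it. Among markers of other cells, PTPRC and LYZ of blood cells and VWF, CDH5, KDR, DCN, LUM and PDGFRB of endothelium and fibroblasts averaged below the filter, whereas CD14, CD3E, HBB and PECAM1 lay above it. Summed over the array, the epithelial markers came to linear signals of 85009 to 115280 in si-Med23, 66171 to 85176 in si-Elk1 and 63385 to 70441 in si-Ctrl. In si-Med23 against si-Ctrl, 4 of the 8 tested rose and 0 fell, or 50%, against 39.8% of all genes called (20.3% higher). The 5 measured blood cell markers came to 672 to 1168 in si-Med23, 1031 to 1225 in si-Elk1 and 373 to 687 in si-Ctrl. Of the 3 tested, only CD14 passed against si-Ctrl. It was higher in both knockdowns, by 1.65 in si-Med23 and 1.77 in si-Elk1 on the log2 scale (limma, adjusted p = 0.00276 and 0.0113). CD3E was at -1.81 in si-Med23 and 0.68 in si-Elk1 (limma, adjusted p = 0.0648 and 0.553). Its mean log2 signal was 4.94 in si-Med23 and 7.43 in si-Elk1, lower in si-Med23 (limma, adjusted p = 0.0365). HBB was at 0.14 in si-Med23 and 0.60 in si-Elk1 (limma, adjusted p = 0.869 and 0.556). The 7 markers of endothelium and fibroblasts came to 276 to 359 in si-Med23, 414 to 676 in si-Elk1 and 360 to 469 in si-Ctrl. The part of these markers in the results was not tested. In bulk RNA, fewer cells that make a transcript and less of it per cell cannot be told apart.

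In si-Med23 against si-Ctrl the pathway moved in both directions. STARD4, ELOVL6, SC5D, HMGCS1 and IDI1 fell, and NSDHL, SREBF1, EBP, PMVK, FDPS and SREBF2 rose, with the other 16 measured members not passing the test. The test was limma's moderated test with Benjamini-Hochberg adjustment over the 12616 genes at 0.05, with 3 arrays a group. It called 40.7% of the members, against 39.8% of all genes tested (20.3% higher and 19.5% lower), so the share of members called was near the background. Their median log2 fold change was 0.07, against 0.09 for all genes. The knockdown left the median member about where the median gene was, with members ranging between -1.68 and 0.94 on the log2 scale.

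**Figure D1:**
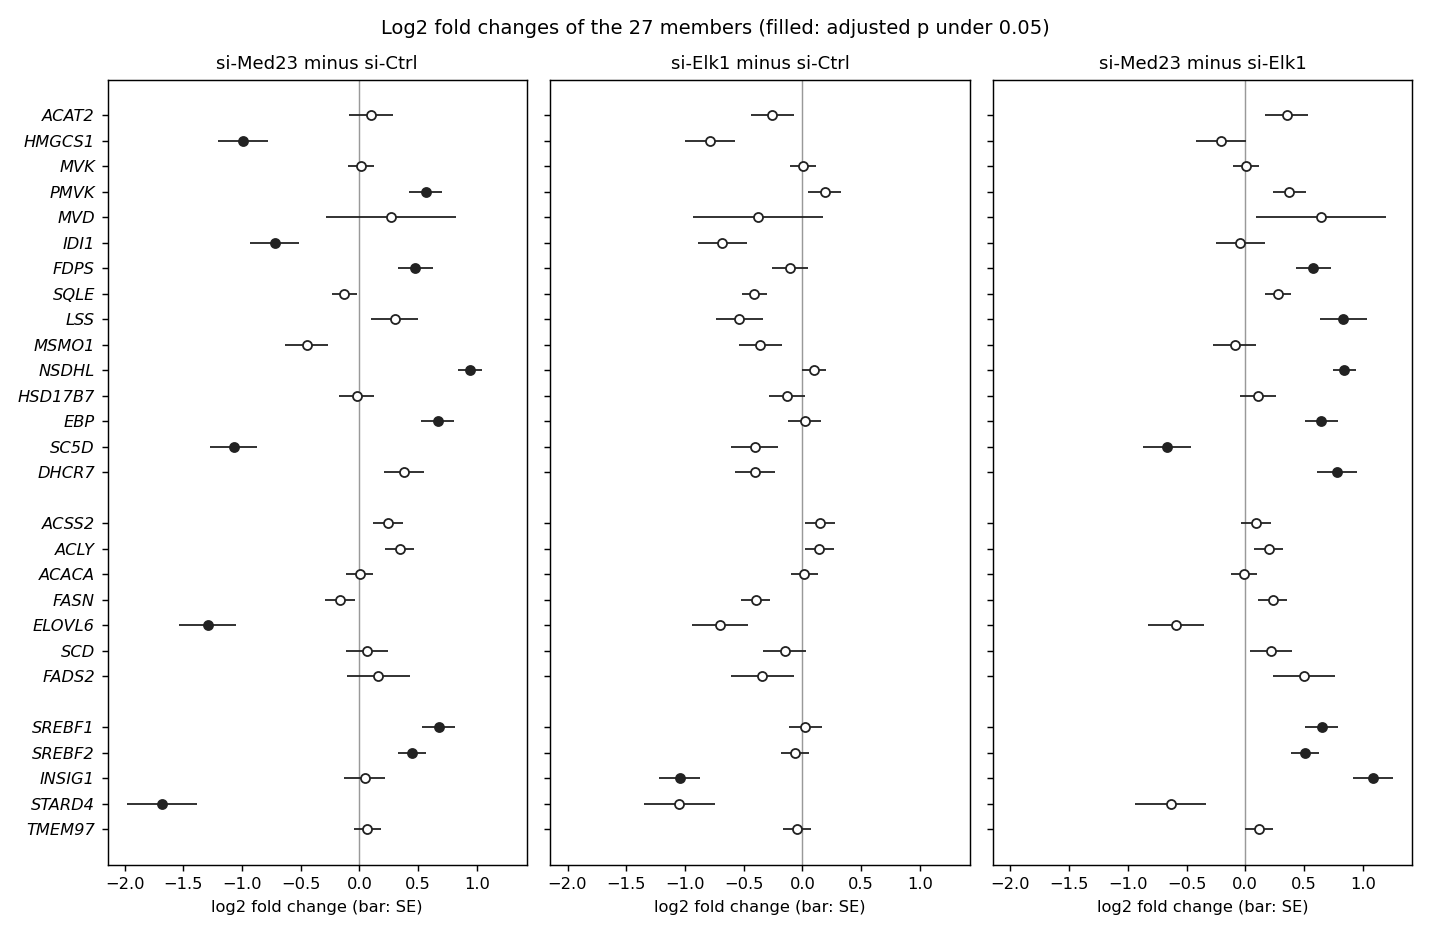
Log2 fold change (horizontal axis) of each of the 27 measured members in the 3 comparisons, with points for the estimate and bars for its standard error, grouped by role; filled points passed the limma test at an adjusted p of 0.05. In si-Med23 against si-Ctrl the points spread from -1.68 (STARD4) to 0.94 (NSDHL), and in si-Elk1 against si-Ctrl 19 of 27 lie below 0 and only INSIG1 is filled.

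Among the regulators and carriers, both SREBP genes rose in si-Med23. SREBF1 had log2 signals of 11.52, 11.36 and 11.75 in si-Med23, against 10.85, 10.93 and 10.83 in si-Ctrl, and every si-Med23 array lay above every si-Ctrl array. The log2 fold change was 0.68 ± 0.14 (SE), or 1.60-fold (limma, adjusted p = 0.00763). SREBF2, whose product acts mainly on sterol genes, had 9.21, 9.34 and 9.27 in si-Med23, against 8.74, 8.90 and 8.84 in si-Ctrl. The SREBF2 groups did not overlap either, and the log2 fold change was 0.44 ± 0.12 (SE; limma, adjusted p = 0.0192). The SREBF2 call ended without si-Ctrl 1 (limma, adjusted p = 0.0707), si-Ctrl 3 (0.0573) or si-Med23 oligo B (0.0577). With the mean over all probe sets of the gene, SREBF1 was at 0.54 and SREBF2 at 0.27, and neither passed (limma, adjusted p = 0.115 and 0.208).

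STARD4, a soluble carrier that moves cholesterol between membranes and is itself an SREBP target, had the largest fall of the members. Its log2 signals were 7.44, 7.78 and 8.25 in si-Med23, against 9.33, 9.22 and 9.97 in si-Ctrl, so the groups were well apart. The log2 fold change was -1.68 ± 0.30 (SE), or 0.312 of the si-Ctrl level (limma, adjusted p = 0.00456). INSIG1, which retains SREBP in the endoplasmic reticulum and is one of its best-known target genes, was at 10.68, 10.60 and 11.11 in si-Med23 and 10.95, 10.80 and 10.51 in si-Ctrl. These INSIG1 values overlapped, and the log2 fold change was 0.04 ± 0.17 (SE; limma, adjusted p = 0.854). TMEM97, a sterol-responsive membrane protein that binds NPC1, was at 0.07 and did not pass. Its other probe sets above the filter were at 0.39, 0.29 and 0.35.

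The early part of the sterol pathway was split. HMGCS1, the synthase that makes HMG-CoA ahead of mevalonate, had log2 signals of 9.01, 9.17 and 9.44 in si-Med23, against 9.99, 10.22 and 10.38 in si-Ctrl. Every si-Med23 value lay below every si-Ctrl value, and the log2 fold change was -0.99 ± 0.21 (SE), or 0.504 of the si-Ctrl level (limma, adjusted p = 0.00861). A second HMGCS1 probe set above the filter was at -1.68. IDI1, which interconverts the isoprenoid building blocks, had 10.49, 10.51 and 11.14 in si-Med23, against 11.41, 11.22 and 11.68 in si-Ctrl. The IDI1 arrays just missed overlapping, with a log2 fold change of -0.72 ± 0.21 (SE; limma, adjusted p = 0.024). The IDI1 call ended without si-Ctrl 1 (adjusted p = 0.0578), si-Ctrl 3 (0.0859), si-Med23 oligo A (0.075) or si-Med23 oligo B (0.0773), all by limma. It also ended without probe sets ending in _x_at or _s_at, which can bind related transcripts (-0.36; limma, adjusted p = 0.198), and with median centring (-0.49; 0.0686).

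PMVK, the kinase that adds the second phosphate to mevalonate, went the other way. It had 10.90, 11.04 and 10.91 in si-Med23, against 10.41, 10.38 and 10.36 in si-Ctrl, and the groups were apart, with a log2 fold change of 0.57 ± 0.14 (SE; limma, adjusted p = 0.0143). FDPS, the farnesyl diphosphate synthase and target of bisphosphonate drugs, had 12.54, 12.80 and 12.62 in si-Med23, against 12.21, 12.22 and 12.09 in si-Ctrl. Its groups did not overlap, and the log2 fold change was 0.48 ± 0.15 (SE; limma, adjusted p = 0.0349). The FDPS call depended on most of the arrays: it ended without si-Ctrl 1 (limma, adjusted p = 0.0768), si-Ctrl 2 (0.07), si-Ctrl 3 (0.109), si-Med23 oligo B (0.105) or si-Med23 oligo C (0.0672). MVK, the kinase before PMVK, was at 0.01 and ACAT2, which joins acetyl-CoA units, at 0.10, and neither passed. MVD, the decarboxylase, was dim in all groups, with 2 si-Elk1 arrays and 1 si-Ctrl array below the filter level, and its log2 fold change of 0.27 ± 0.55 (SE) says little about its direction.

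In the later part of the pathway NSDHL had the largest rise of the members. NSDHL, which with its partners removes the methyl groups at carbon 4 of the sterol ring, had log2 signals of 11.60, 11.47 and 11.58 in si-Med23, against 10.61, 10.58 and 10.64 in si-Ctrl. The arrays within each group lay close together, and the log2 fold change was 0.94 ± 0.10 (SE), or 1.92-fold (limma, adjusted p = 0.00184). The other NSDHL probe set above the filter was at 0.53. EBP, the isomerase that shifts a double bond in the sterol ring, had 12.02, 12.35 and 12.26 in si-Med23, against 11.54, 11.50 and 11.58 in si-Ctrl. The EBP groups were apart, with a log2 fold change of 0.67 ± 0.14 (SE; limma, adjusted p = 0.00779), and the other EBP probe sets above the filter were at 0.78 and -0.44. With the mean of all EBP probe sets the call ended at 0.42 (limma, adjusted p = 0.166).

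SC5D, the desaturase that acts just after EBP, fell where EBP rose. It had 8.80, 9.02 and 9.29 in si-Med23, against 10.03, 10.11 and 10.19 in si-Ctrl. Every si-Med23 array was below every si-Ctrl array, with a log2 fold change of -1.07 ± 0.20 (SE), or 0.476 of the si-Ctrl level (limma, adjusted p = 0.00541). A second SC5D probe set, with a mean log2 signal of 4.01 and so below the filter, was at 1.47, and the mean of both was at 0.20 (limma, adjusted p = 0.754). MSMO1, which works with NSDHL, was at 11.45, 11.94 and 12.13 in si-Med23 and 12.19, 12.40 and 12.28 in si-Ctrl, lower on every array but not past the test at -0.45 ± 0.18 (SE; limma, adjusted p = 0.0824). DHCR7, the last reductase before cholesterol, was higher on every si-Med23 array (11.02, 11.51 and 11.34) than on any si-Ctrl array (10.98, 10.92 and 10.84) and did not pass at 0.38 ± 0.17 (SE; limma, adjusted p = 0.107). SQLE, which epoxidizes squalene, was at -0.13, LSS, which closes the rings of lanosterol, at 0.30, and HSD17B7 at -0.02, none of them past the test. The HSD17B7 value is uncertain, since a near-identical pseudogene could share its probe set.

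Of the 7 measured fatty acid enzymes only ELOVL6 passed in si-Med23. ELOVL6, the elongase that extends palmitate to stearate, had log2 signals of 9.41, 9.02 and 9.80 in si-Med23, against 10.50, 10.78 and 10.84 in si-Ctrl. The groups were far apart, with a log2 fold change of -1.29 ± 0.24 (SE), or 0.409 of the si-Ctrl level (limma, adjusted p = 0.0053). The other 2 ELOVL6 probe sets above the filter were at -1.42 and -1.80. ACLY, which makes cytosolic acetyl-CoA from citrate, was at 14.56, 14.62 and 14.61 in si-Med23 and 14.15, 14.34 and 14.28 in si-Ctrl, higher on every array but just short of the threshold at 0.34 ± 0.12 (SE; limma, adjusted p = 0.0519). It passed as higher with the stricter filter (limma, adjusted p = 0.0338), the mean of all probe sets (0.42; 0.0276) and median centring (0.58; 0.00495). With the poly-A spikes ACLY passed as lower (-1.27). The other ACLY probe sets above the filter were at 0.49 and 0.44. The committed steps stayed near the controls: ACACA, the acetyl-CoA carboxylase, was at 0.00 and FASN, the fatty acid synthase, at -0.17. ACSS2, which activates acetate, was at 0.24, the desaturase SCD at 0.07 and the desaturase FADS2 at 0.16, none of them past the test. The other FADS2 probe set above the filter was at 1.03, and FADS2 passed as higher without probe sets ending in _x_at or _s_at (limma, adjusted p = 0.0325).

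**Figure D2:**
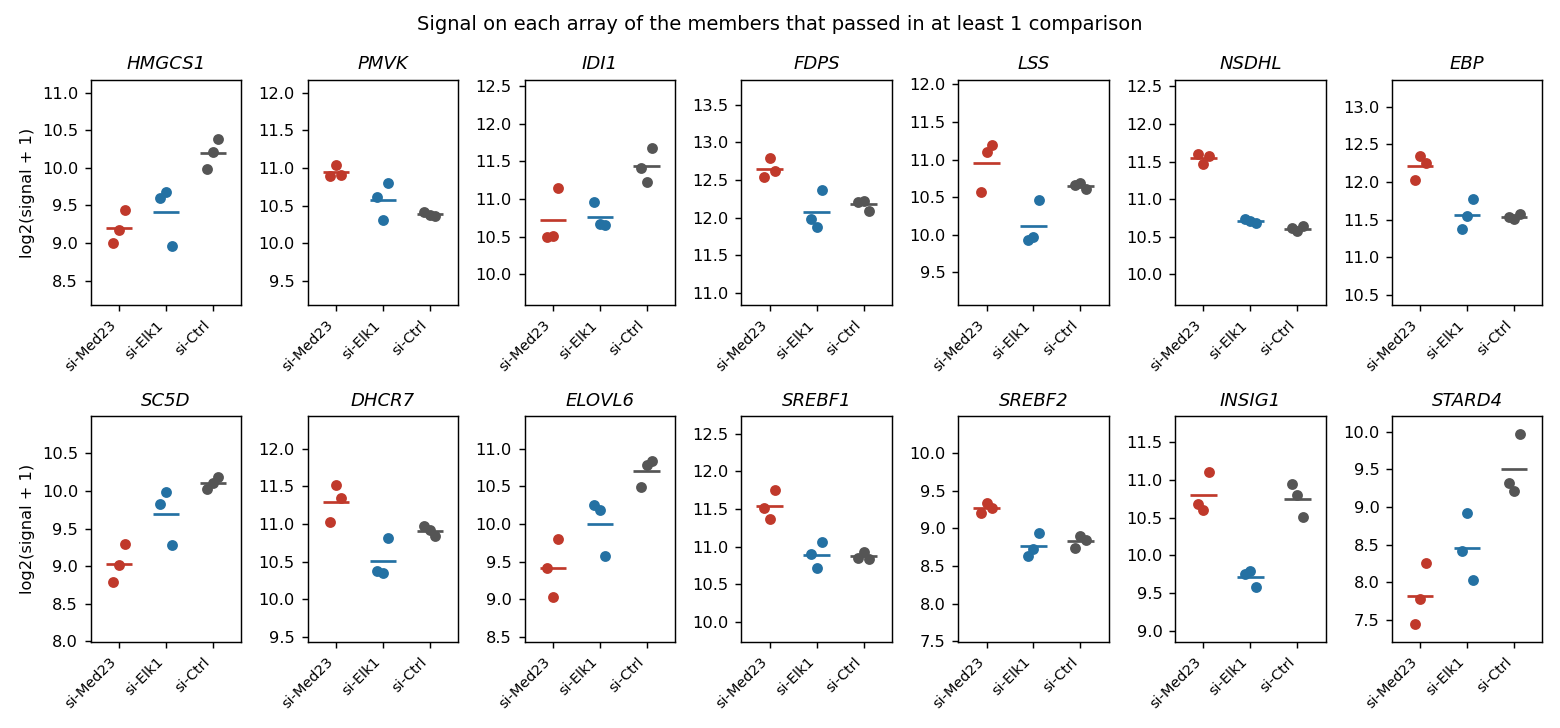
Log2 signal (vertical axis) on each array of the 14 members that passed in at least 1 comparison, with si-Med23, si-Elk1 and si-Ctrl from left to right; each point is an array and each bar a group mean. NSDHL, SREBF1, EBP and PMVK show si-Med23 points above all si-Ctrl points, STARD4, ELOVL6, SC5D and HMGCS1 show them below, and INSIG1 is low in si-Elk1.

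By role, 4 of the 15 measured sterol enzymes rose and 3 fell in si-Med23 (46.7% called, median log2 fold change 0.10). Of the 7 fatty acid enzymes 1 fell (14.3%, median 0.07), and of the 5 regulators and carriers 2 rose and 1 fell (60%, median 0.07). Of all genes 39.8% were called (20.3% higher and 19.5% lower), and each role holds few genes. These 3 role medians were 0.30 to 0.33 with median centring and -0.43 to -0.40 with the hybridization controls, near the all-gene medians of 0.32 and -0.41 under those scalings. Groups of arrays did not overlap for 8 members that were higher and 6 that were lower in si-Med23, or 51.9% of the members, against 57.3% of all genes (31.7% higher and 25.6% lower). Of the 11 members that passed, 8 passed with any 1 of the 6 arrays of the comparison left out, the exceptions being FDPS, IDI1 and SREBF2.

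Promoters are shown for examples of members that moved each way and for the SREBP gene that holds a match to the sterol element, chosen after the values were seen and not by rank of change. RefSeq promoter windows (GRCh38.p14, 250 bases before to 50 after the start) matched 26 of the 30 members. Below, STARD4, ELOVL6 and HMGCS1 fell in si-Med23, NSDHL and SREBF2 rose in si-Med23, and INSIG1 fell in si-Elk1. Each is printed 5′ to 3′ on the gene's strand, and capitals mark the CCAAT box on either strand (CCAAT or ATTGG) and, in SREBF2, the sterol regulatory element match. ELOVL6 has no CCAAT box in its window, and neither has the other of the HMGCS1 windows, chr5:43313132-43313431, which is not printed.
STARD4, chr5:111512486-111512785, minus strand: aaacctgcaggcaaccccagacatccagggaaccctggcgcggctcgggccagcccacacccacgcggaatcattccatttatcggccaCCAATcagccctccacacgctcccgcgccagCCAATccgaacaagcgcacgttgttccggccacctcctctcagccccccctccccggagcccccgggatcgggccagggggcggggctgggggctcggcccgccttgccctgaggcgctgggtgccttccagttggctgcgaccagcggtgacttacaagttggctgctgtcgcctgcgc
ELOVL6, chr4:110198566-110198865, minus strand: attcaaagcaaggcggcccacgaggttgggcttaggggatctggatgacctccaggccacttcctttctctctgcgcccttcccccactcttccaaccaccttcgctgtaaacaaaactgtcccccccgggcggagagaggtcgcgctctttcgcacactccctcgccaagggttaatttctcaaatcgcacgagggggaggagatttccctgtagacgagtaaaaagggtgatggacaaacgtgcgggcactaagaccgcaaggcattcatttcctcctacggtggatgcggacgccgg
HMGCS1, chr5:43313363-43313662, minus strand: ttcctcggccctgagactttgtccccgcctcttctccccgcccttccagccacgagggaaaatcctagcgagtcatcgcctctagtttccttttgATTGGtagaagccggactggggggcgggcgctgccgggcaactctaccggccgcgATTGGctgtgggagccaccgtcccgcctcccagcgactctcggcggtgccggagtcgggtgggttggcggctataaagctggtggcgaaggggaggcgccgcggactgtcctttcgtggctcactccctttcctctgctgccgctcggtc
NSDHL, chrX:152830813-152831112, plus strand: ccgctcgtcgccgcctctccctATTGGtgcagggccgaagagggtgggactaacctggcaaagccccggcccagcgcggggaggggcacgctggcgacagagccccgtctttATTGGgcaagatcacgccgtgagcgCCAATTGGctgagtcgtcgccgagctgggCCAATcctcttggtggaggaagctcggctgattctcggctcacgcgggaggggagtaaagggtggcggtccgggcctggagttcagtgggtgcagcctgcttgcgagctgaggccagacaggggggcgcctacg
SREBF2, chr22:41832855-41833154, plus strand: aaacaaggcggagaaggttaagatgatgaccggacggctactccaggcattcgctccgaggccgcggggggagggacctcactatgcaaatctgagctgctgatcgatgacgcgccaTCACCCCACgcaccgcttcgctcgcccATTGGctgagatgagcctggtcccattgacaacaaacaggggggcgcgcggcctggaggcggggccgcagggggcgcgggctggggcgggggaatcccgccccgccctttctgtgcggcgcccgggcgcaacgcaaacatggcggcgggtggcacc
INSIG1, chr7:155297628-155297927, plus strand: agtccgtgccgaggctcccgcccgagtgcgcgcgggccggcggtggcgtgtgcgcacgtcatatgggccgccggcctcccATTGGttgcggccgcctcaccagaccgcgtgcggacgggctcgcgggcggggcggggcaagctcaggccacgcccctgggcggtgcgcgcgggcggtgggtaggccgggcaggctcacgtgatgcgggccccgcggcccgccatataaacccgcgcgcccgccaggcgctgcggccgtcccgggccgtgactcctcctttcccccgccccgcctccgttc

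The CCAAT box, the site of the factor NF-Y, stood in the windows of 21 of the 26 members (80.8%), against 39.7% of all 27305 genes with a window. It stood in 4 of the 6 members that rose in si-Med23 and in 4 of the 5 that fell, against 13 of the 13 that did not pass and have a window. The GC box GGGCGG, bound by SP1 and its relatives, stood in 25 of 26 members, against 48.3% of all genes. A sterol regulatory element, searched as TCACNCCAC, was found in 1 member (SREBF2), against 1.39% of all genes. The E-box CACGTG was found in INSIG1, LSS and SC5D (11.5% of the members, against 8.77% of all genes). The ETS core CCGGAAG, the kind of site that ELK1 and other ETS factors bind, was in 4 members (15.4%), against 12.2% of all genes. All motifs were searched on both strands, they were chosen after the values were seen, and a match describes letters in the window and not binding.

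In si-Elk1 against si-Ctrl the members lay mostly lower, but by little. Of the 27 members, 19 had a negative log2 fold change, and only INSIG1 passed the test, which is 3.70% of the members, against 4.26% of all genes (3.07% higher and 1.19% lower). By limma without adjustment, 9 members were under a p of 0.05, and the all-gene share under it is not given here. The median log2 fold change was -0.26, against 0.05 for all genes, and it had this sign in each role, with -0.36 for sterol enzymes, -0.15 for fatty acid enzymes and -0.06 for regulators and carriers. With quantile normalization they were -0.36, -0.22 and -0.08. On the single arrays the median member was 0.27 below its si-Ctrl mean with oligo A, 0.20 with oligo B and 0.10 with oligo C, with 22, 23 and 15 of the 27 members below. Arrays did not overlap for 12 members that were lower and 1 that was higher (NSDHL), or 48.1% of the members, against 36.3% of all genes (21.1% higher and 15.1% lower).

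INSIG1 had log2 signals of 9.76, 9.80 and 9.58 in si-Elk1, against 10.95, 10.80 and 10.51 in si-Ctrl. All 3 oligos were low and close together. The log2 fold change was -1.04 ± 0.17 (SE), or 0.485 of the si-Ctrl level (limma, adjusted p = 0.0194), and the other INSIG1 probe sets above the filter were at -0.84 and -1.06. The call ended without si-Ctrl 1 (limma, adjusted p = 0.0675), si-Ctrl 2 (0.0702), si-Elk1 oligo A (0.0563) or si-Elk1 oligo C (0.0532), while the log2 fold change stayed between -1.68 and -0.94 over all alternatives.

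The 5 members that fell in si-Med23 are given here in si-Elk1 too, where none passed. With the stricter filter HMGCS1 (limma, adjusted p = 0.0363) and STARD4 (0.0417) did pass as lower in si-Elk1, with 10.2% of all genes called. Both comparisons share the si-Ctrl arrays, so a like sign in both is no independent result. STARD4 was at 8.42, 8.92 and 8.04 in si-Elk1, below all si-Ctrl arrays, with a log2 fold change of -1.05 ± 0.30 (SE; limma, adjusted p = 0.0816). HMGCS1 was at 9.59, 9.67 and 8.96, at -0.78 (limma, adjusted p = 0.0729), and IDI1 at 10.95, 10.67 and 10.65, at -0.68 (limma, adjusted p = 0.0918). ELOVL6 was at 10.25, 10.18 and 9.58, at -0.70 (limma, adjusted p = 0.122), and SC5D at 9.83, 9.99 and 9.28, at -0.41 (limma, adjusted p = 0.244). In HMGCS1, ELOVL6, SC5D and STARD4, oligo C gave the lowest si-Elk1 value, and oligos A and B lay between it and si-Ctrl. Oligo C also had the lowest MED23 signal (8.18) and the highest ELK1 signal (7.83) in si-Elk1.

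In 4 other members the si-Elk1 arrays lay below si-Ctrl while si-Med23 overlapped with si-Ctrl, again without passing. They are among the 12 members lower without overlap in si-Elk1, and 15.1% of all genes were lower without overlap there. SQLE was at 11.94, 12.05 and 11.93 in si-Elk1, against 12.42, 12.39 and 12.33 in si-Ctrl, with a log2 fold change of -0.41 ± 0.11 (SE; limma, adjusted p = 0.069). FASN lay between 10.89 and 11.14 in si-Elk1, against 11.43, 11.45 and 11.34 in si-Ctrl, at -0.40 ± 0.13 (SE; limma, adjusted p = 0.1). LSS was at 9.93, 9.97 and 10.46 in si-Elk1, against 10.66, 10.69 and 10.62 in si-Ctrl, at -0.54 (limma, adjusted p = 0.147). SCD was at 13.45, 13.50 and 13.48 in si-Elk1, against 13.60, 13.68 and 13.61 in si-Ctrl, at -0.15 (limma, adjusted p = 0.616). For SREBF1 (0.02), EBP (0.02), FDPS (-0.10) and SREBF2 (-0.06), which rose in si-Med23, the si-Elk1 fold change was small and did not pass.

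**Figure D3:**
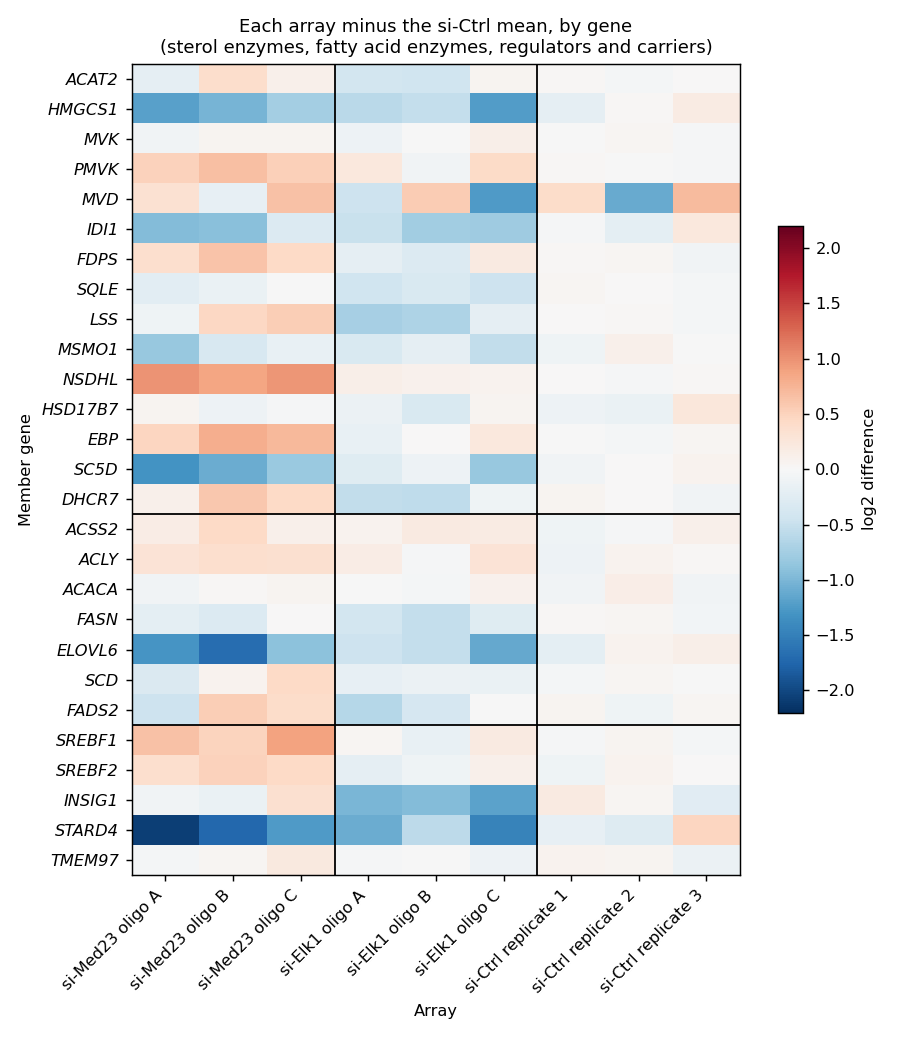
Log2 signal of each of the 27 measured members on each of the 9 arrays minus the member's si-Ctrl mean (colour scale in log2 units), with arrays in columns from si-Med23 to si-Elk1 to si-Ctrl and members in rows by role. STARD4, ELOVL6, SC5D, HMGCS1 and IDI1 are low in the si-Med23 columns, and NSDHL, SREBF1, EBP and PMVK are high in the si-Med23 columns.

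Set directly against each other, si-Med23 was higher than si-Elk1 in 8 members (INSIG1, LSS, NSDHL, DHCR7, EBP, SREBF1, FDPS and SREBF2) and lower in SC5D, and the other 18 did not pass. That is 33.3% of the members, against 21.7% of all genes (9.54% higher and 12.2% lower). The median member was at 0.23, against -0.03 for all genes. But its sign turned with the hybridization controls (-0.08, all genes -0.34) and with the poly-A spikes (-0.74, all genes -0.998). With the poly-A spikes 17 members were called lower and 0 higher, and 81.3% of all genes were called. Arrays did not overlap for 11 members, all higher in si-Med23, or 40.7%, against 38.0% of all genes (18.5% higher and 19.5% lower). Of the fatty acid enzymes none passed by limma, and 1 of the 7 was under an unadjusted p of 0.05 (all-gene share not given here). With other settings FADS2 passed as higher: with the mean of all probe sets (1.07; limma, adjusted p = 0.0198), without _x_at or _s_at probe sets (1.63; 0.0133), with median centring (0.87; 0.025) and without si-Med23 oligo A (0.81; 0.0365). ELOVL6 passed as lower with the mean of all probe sets (-0.97; limma, adjusted p = 0.025), with array weights (-0.80; 0.0159) and without si-Elk1 oligo C (-0.80; 0.0302). TMEM97 passed as higher with the mean of all probe sets (0.43; limma, adjusted p = 0.0419). That setting also ended the calls of LSS (0.58; limma, adjusted p = 0.234), EBP (0.57; 0.108), SREBF1 (0.67; 0.0885), SREBF2 (0.27; 0.252) and SC5D (-0.035; 0.966). Other probe sets above the filter were at 0.10 for LSS, and at 0.86 and -0.87 for EBP.

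INSIG1 differed most, with log2 signals of 10.68, 10.60 and 11.11 in si-Med23, against 9.76, 9.80 and 9.58 in si-Elk1. The log2 difference was 1.09 ± 0.17 (SE), or 2.13-fold (limma, adjusted p = 0.00779). NSDHL had 11.60, 11.47 and 11.58 in si-Med23, against 10.73, 10.71 and 10.68 in si-Elk1, and the log2 difference was 0.84 ± 0.10 (SE; limma, adjusted p = 0.00442). Both calls held with any array left out, and the other NSDHL probe set above the filter was at 0.55.

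LSS had 10.56, 11.10 and 11.20 in si-Med23, against 9.93, 9.97 and 10.46 in si-Elk1, at 0.84 ± 0.20 (SE; limma, adjusted p = 0.0241), and DHCR7 had 11.02, 11.51 and 11.34 in si-Med23, against 10.37, 10.35 and 10.81 in si-Elk1, at 0.78 ± 0.17 (SE; limma, adjusted p = 0.0185). Neither passed against si-Ctrl, where LSS was at 0.30 in si-Med23 and -0.54 in si-Elk1, and DHCR7 at 0.38 in si-Med23 and -0.40 in si-Elk1. EBP was at 11.37, 11.54 and 11.77 in si-Elk1 and SREBF1 at 10.90, 10.71 and 11.06, each 0.65 ± 0.14 (SE) below si-Med23 (limma, adjusted p = 0.0178). FDPS was at 11.98, 11.87 and 12.36 in si-Elk1, which put si-Med23 higher by 0.58 (limma, adjusted p = 0.0304), and SREBF2 was at 8.64, 8.73 and 8.93, which put it higher by 0.51 (limma, adjusted p = 0.0227).

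SC5D was lower in si-Med23 by limma at -0.66 ± 0.20 (SE; adjusted p = 0.048), but its arrays overlapped, with 9.29 in si-Med23 oligo C and 9.28 in si-Elk1 oligo C. Without si-Elk1 oligo A all 7 of these calls other than INSIG1 and NSDHL ended (limma, adjusted p from 0.0603 to 0.141), and so did they without si-Elk1 oligo B (0.0607 to 0.148). Without si-Med23 oligo B, those of DHCR7, EBP, FDPS, LSS, SC5D and SREBF2 ended (limma, adjusted p from 0.0552 to 0.108). Those of FDPS (0.0514) and SC5D (0.129) ended without si-Med23 oligo A, and those of FDPS (0.0598) and LSS (0.0624) without oligo C. Without si-Elk1 oligo C, by contrast, 10 members were called higher and 2 lower. Of all 12616 genes 2045 were called higher and 2451 lower there, or 35.6%.

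**Figure D4:**
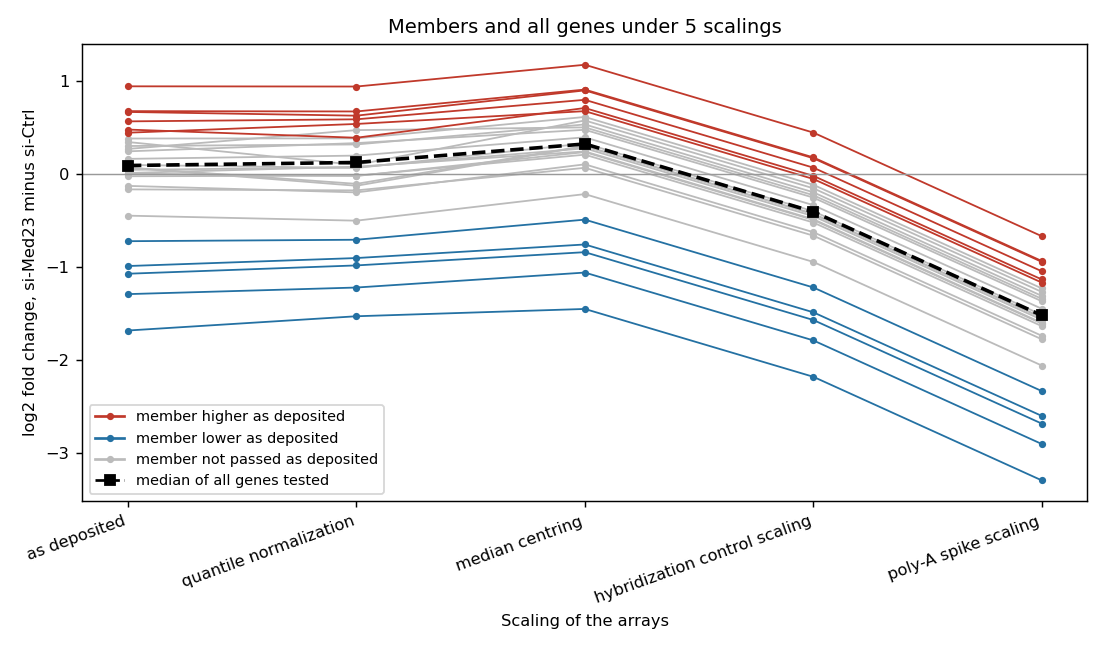
Log2 fold change of the 27 measured members in si-Med23 against si-Ctrl (vertical axis) under the deposited scaling and 4 others (horizontal axis); each thin line is a member, coloured by its call with the deposited scaling, and the dashed line is the median of all genes tested. The members move with the all-gene line, by construction for all but quantile normalization, and that line lies at 0.09 with the deposited scaling, 0.32 with median centring and -1.52 with the poly-A spikes.

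Genes around the pathway were counted from lists of neighbouring functions, and both knockdowns were set against the same si-Ctrl arrays. Of 11 tested genes of other sterol and isoprenoid steps, 3 fell and 0 rose in si-Med23 (median -0.32), which is 27.3% called, against 39.8% of all genes. With median centring 3 rose and 2 fell, with 51% of all genes called. PGGT1B, a subunit of the transferase that attaches geranylgeranyl groups to proteins, was at -1.21 ± 0.27 in si-Med23 (SE; limma, adjusted p = 0.00973). LBR, the lamin B receptor with sterol reductase activity, was at -0.93 ± 0.22 (SE; limma, adjusted p = 0.0124). GGPS1, which makes geranylgeranyl diphosphate from the FDPS product, was at -0.79 ± 0.23 (SE; limma, adjusted p = 0.0266), and FNTA, which prenyltransferases share, was at -0.38 and did not pass. In si-Elk1 none of the 11 passed by limma, and 3 were under an unadjusted p of 0.05 (all-gene share not given here).

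Of 11 tested genes of SREBP processing, 2 rose and 3 fell in si-Med23 (median 0.14), or 45.5%, against 39.8% of all genes. With the hybridization controls 0 rose and 5 fell, with 44.5% of all genes called. SCAP, the SREBP escort, was at 0.64 ± 0.15 (SE; limma, adjusted p = 0.0107) and MBTPS1, the site 1 protease that makes the first cut in SREBP, at 0.67 ± 0.18 (SE; limma, adjusted p = 0.0179). MBTPS2, which makes the second cut, was at -0.78 ± 0.24 (SE; limma, adjusted p = 0.0299), and PAQR3, a Golgi protein that anchors SCAP and SREBP there, at -1.08 ± 0.22 (SE; limma, adjusted p = 0.00741). In si-Elk1 none of these 11 passed by limma, and 2 were under an unadjusted p of 0.05 (all-gene share not given here). SCAP was at 0.56 and MBTPS1 at 0.62 there.

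Among 14 tested genes of sterol uptake, transport and export, 5 rose and 4 fell in si-Med23, or 64.3%, against 39.8% of all genes. In si-Elk1, 2 rose and 2 fell, or 28.6%, against 4.26% of all genes. ABCG1, the sterol exporter that LXR induces, rose in both, by 1.65 ± 0.23 in si-Med23 and 1.55 ± 0.23 in si-Elk1 (SE; limma, adjusted p = 0.0023 and 0.0124). NPC2, which hands cholesterol on in the lysosome, rose by 1.04 ± 0.17 in si-Med23 (SE; limma, adjusted p = 0.0032), and NPC1, the membrane protein that receives it, fell by 0.40 in si-Med23 and by 0.71 in si-Elk1 (limma, adjusted p = 0.0234 and 0.0167). VLDLR, a lipoprotein receptor, fell by 0.55 ± 0.12 in si-Med23 (SE; limma, adjusted p = 0.00929). With the poly-A spikes 0 of the 14 rose and 13 fell in si-Med23, with 94.3% of all genes called. Median centring gave 8 higher and 0 lower (all genes 51%), and the hybridization controls 2 higher and 4 lower (all genes 44.5%).

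Of 25 tested genes of other fatty acid and lipid synthesis, 5 rose and 4 fell in si-Med23, or 36.0%, against 39.8% of all genes. With the hybridization controls 1 rose and 12 fell, with 44.5% of all genes called. In si-Elk1, 1 rose and 2 fell, or 12%, against 4.26% of all genes. LPIN1, the phosphatidate phosphatase of triglyceride synthesis, fell in both, by 0.89 ± 0.11 in si-Med23 and by 1.12 ± 0.11 in si-Elk1 (SE; limma, adjusted p = 0.00202 and 0.00318). DGAT1, which makes triglyceride, rose in both, by 0.69 ± 0.12 in si-Med23 and by 0.59 ± 0.12 in si-Elk1 (SE; limma, adjusted p = 0.00473 and 0.0395). The desaturase SCD5 rose by 1.04 ± 0.18 and the enoyl reductase TECR by 0.87 ± 0.17 in si-Med23 (SE; limma, adjusted p = 0.00394 and 0.00552).

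Fatty acid oxidation, the opposite pathway, had 10 of 15 tested genes higher and 1 lower in si-Med23 (median 0.61), or 73.3% called, against 39.8% of all genes. In si-Elk1, 3 were higher and 0 lower (median 0.31), or 20%, against 4.26% of all genes. With the poly-A spikes 0 were higher and 11 lower in si-Med23 (all genes 94.3% called), and 1 higher and 2 lower in si-Elk1 (all genes 39.6%). Median centring gave 12 higher and 1 lower in si-Med23 (all genes 51%), and 2 higher and 0 lower in si-Elk1 (all genes 4.48%). The hybridization controls gave 3 higher and 1 lower in si-Med23 (all genes 44.5%), and 2 higher and 0 lower in si-Elk1 (all genes 3.36%). CPT1A, which passes fatty acids to carnitine at the mitochondrial membrane, rose by 0.75 ± 0.12 in si-Med23 and by 0.87 ± 0.12 in si-Elk1 (SE; limma, adjusted p = 0.00297 and 0.00909). CPT1C, a relative known mainly from neurons, rose by 1.36 ± 0.20 in si-Med23 and by 1.33 ± 0.20 in si-Elk1 (SE; limma, adjusted p = 0.00266 and 0.0143). ACAA2, the last thiolase of the cycle, rose by 1.13 ± 0.16 and SLC25A20, the carnitine carrier, by 0.87 ± 0.13 in si-Med23 (SE; limma, adjusted p = 0.00244 and 0.00254).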

How the data were processed

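RNA was measured on 9 arrays, and groups and replicate numbers come from the labels. The authors deposited linear intensities for each probe set. RMA and MAS5 are named, without versions or roles, per the submitters' processing notes. The 2% trimmed mean of these intensities is about 500 on each array. No detection calls were used, and precision is limited by how few arrays a group has.

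Signals were analysed as log2(value + 1), which slightly understates the change of dim genes. Of 54675 probe sets, 62 were controls, 41097 had 1 gene in the platform annotation, 1801 had several and 11777 were not listed there. RefSeq (GRCh38.p14) held 41043 of the identifiers, and 0 symbols changed. Each gene took its single-gene probe set with the highest mean, and genes under the median probe set mean (log2 6.05, signal 65.4) were left out. Differences were tested in 1 fit of 9 arrays with no block (limma 3.58.1, R 4.3.3, two-sided), adjusted by Benjamini-Hochberg over 12616 genes within a comparison, with a threshold of 0.05. No duplicated array was found. The fit was checked on simulated data. Members and lists were chosen with earlier results of these data known. All members are accounted for, those that passed have values on each array, and of each neighbouring list at most 4 genes with the smallest p are named. Alternatives were other filters, probe set rules, scalings and pseudocounts, a floor, the 6 arrays compared, a replicate block, array weights and each array left out.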

Additional observations from a re-analysis of the deposited data

How the results depend on the processing

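Among members in si-Med23 against si-Ctrl, 6 were higher and 5 lower, with 39.8% of all genes called. Lower calls came to 3 without probe sets ending in _x_at or _s_at, a setting with 17 members tested and 36.4% of all genes called. Median centring gave 10 higher and 4 lower, with 51% of all genes called. The hybridization controls gave 1 higher and 12 lower, with 44.5% of all genes called. The poly-A spikes gave 0 higher and 26 lower, with 94.3% of all genes called. With an array left out, 4 to 6 were higher and 4 to 6 lower, with 25.2% to 32.8% of all genes called. In si-Elk1 against si-Ctrl, where 1 member was lower, 0 were lower with no filter and with the replicate block, 4 with the stricter filter, 3 with median centring, 3 with the hybridization controls, 21 with the poly-A spikes and 6 with array weights. Of all genes, 0.602% were called there with no filter, 1.28% with the replicate block and 10.2% with the stricter filter. The all-gene share was 4.48% with median centring, 3.36% with the hybridization controls, 39.6% with the poly-A spikes and 12.6% with array weights. With an array left out, 0 were higher and 0 to 1 lower, with 0.864% to 2.1% of all genes called. In si-Med23 against si-Elk1, where 8 were higher and 1 lower, 2 were higher with no filter and with only the 6 arrays compared, 20 with median centring, 3 with the hybridization controls and 0 with the poly-A spikes. Lower calls were 0 with no filter, without _x_at or _s_at probe sets, with median centring, with only the 6 arrays and with the replicate block, 2 with array weights, 4 with the hybridization controls and 17 with the poly-A spikes. Of all genes, 4.95% were called there with no filter, 8.51% with only the 6 arrays and 41.5% with median centring. The all-gene share was 34.1% with the hybridization controls and 81.3% with the poly-A spikes. It was 20% without _x_at or _s_at probe sets, 10.5% with the replicate block and 39.4% with array weights. With an array left out, 2 to 10 members were higher and 0 to 2 lower, with 6.1% to 35.6% of all genes called. Beyond the smaller number of members or arrays that some of these settings hold, the cause was not tested.

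Replicate numbers did not pair the arrays: same-numbered arrays of different groups deviated together with correlations of -0.18 to 0.05. With the replicate number as a block, 5 members were higher and 5 lower in si-Med23 against si-Ctrl, with 32.6% of all genes called. The counts were 0 and 0 in si-Elk1 against si-Ctrl (all genes 1.28%), and 6 and 0 in si-Med23 against si-Elk1 (all genes 10.5%).

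Signs turned mainly with the control scalings, which move all genes together, and the cause of the difference between the scalings was not tested. The values below are those that passed before or after the turn, and 102 other turns over all settings, 24 of them with the hybridization controls, passed neither way. With the poly-A spikes in si-Med23 against si-Ctrl, log2 fold changes were -1.61 for ACACA, -1.51 for ACAT2, -1.27 for ACLY, -1.37 for ACSS2, -1.23 for DHCR7, -0.94 for EBP, -1.45 for FADS2, -1.13 for FDPS, -1.57 for INSIG1, -1.31 for LSS, -1.60 for MVK, -0.67 for NSDHL, -1.05 for PMVK, -1.54 for SCD, -0.94 for SREBF1, -1.17 for SREBF2 and -1.54 for TMEM97. In si-Elk1 against si-Ctrl they were -0.62 for ACACA, -0.63 for MVK and -0.61 for SREBF1. In si-Med23 against si-Elk1 they were -0.62 for ACAT2, -0.77 for ACLY, -0.88 for ACSS2, -0.19 for DHCR7, -0.32 for EBP, -0.74 for FASN, -0.39 for FDPS, -0.86 for HSD17B7, -0.14 for LSS, -0.97 for MVK, -0.13 for NSDHL, -0.60 for PMVK, -0.75 for SCD, -0.69 for SQLE, -0.32 for SREBF1, -0.46 for SREBF2 and -0.85 for TMEM97. With the hybridization controls in si-Med23 against si-Ctrl they were -0.49 for ACACA, -0.020 for FDPS, -0.49 for MVK, -0.054 for SREBF2 and -0.43 for TMEM97. Apart from scaling on controls, SC5D in si-Med23 against si-Ctrl was at 0.20 with the mean of its probe sets, and ACACA in si-Med23 against si-Elk1 at 0.35 with median centring. STARD4, HMGCS1 and ELOVL6 passed as lower in si-Med23 under all 13 alternatives and with any array left out. With the poly-A spikes 26 members and 11880 of 12616 genes were called lower, so passing there says little. The probe set rules could not change the values of STARD4, which has 1 single-gene probe set.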
